A study of Mus musculus with 5 samples.

Results

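Genes for 10 transcription factors of the rhombic lip lineage, Atoh1, Olig3, Lhx2, Lhx9, Barhl1, Barhl2, Lmx1a, Pax6, Meis1 and Meis2, were followed in 4 mouse medulloblastomas and 1 mouse cerebellum. They were taken as every probe set on the array whose single gene symbol in the platform annotation is one of these names, which gave all 10 genes, of 18193 genes on the array, and 23 probe sets of 34945 with a single symbol. A probe set is a group of short oligonucleotides that together report 1 transcript, and its deposited value, the signal, is an intensity on a linear scale. The tumours are numbered in the order of their records. The cerebellum is labelled P5, read as postnatal day 5, and the labels give no age, sex, strain, genotype or treatment for any tumour; the series title names Cxcr6 mutant mice and a Smoothened inhibitor, without saying which arrays these concern. Whether a sample pooled several animals is not given in the sources used here. With a single young cerebellum to set the tumours against, age and tumour status cannot be told apart. In bulk tissue, fewer cells of a type and less RNA per cell cannot be told apart either. The submitters' design text calls the replicates too few for statistics. RNA came by Trizol for every array except medulloblastoma 4, whose label names only the manufacturer's standard.

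The rhombic lip is the dorsal rim of the embryonic hindbrain, where the cerebellum borders the roof plate, and it produces the glutamatergic neurons of the cerebellum. Its progenitors use the basic helix-loop-helix (bHLH) factor Atoh1, and their descendants include granule neurons, unipolar brush cells and projection neurons of the cerebellar nuclei. Granule neuron precursors keep Atoh1 while they divide in the outer layer of the young cerebellum in response to Sonic hedgehog, and they are a known cell of origin of Hedgehog-type medulloblastoma. The other bHLH factor here, Olig3, is known from early dorsal progenitors of the hindbrain and spinal cord. Lhx2, Lhx9 and Lmx1a are LIM-homeodomain factors, Barhl1 and Barhl2 are BarH-like homeodomain factors, Pax6 carries a paired domain and a homeodomain, and Meis1 and Meis2 are homeodomain partners of Hox and Pbx proteins.

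The sequences around the annotated transcription starts of Atoh1, Olig3 and Lhx2 are shown because these were the genes of the set that rose in the tumours by the test used. RefSeq (GRCm38.p6) gives the bases just before and after each start in windows of 300, and all 10 genes matched, with 13 starts among them. Capitals mark the E-box, CANNTG on either strand, the core sequence that bHLH proteins bind.
Atoh1, chr6:64728875-64729174, plus strand: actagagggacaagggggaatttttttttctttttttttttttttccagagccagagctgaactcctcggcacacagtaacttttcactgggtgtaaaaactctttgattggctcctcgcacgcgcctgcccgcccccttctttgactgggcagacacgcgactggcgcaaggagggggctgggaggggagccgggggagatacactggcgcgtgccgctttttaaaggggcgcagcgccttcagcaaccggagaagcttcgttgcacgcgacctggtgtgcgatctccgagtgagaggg
Olig3, chr10:19356289-19356588, plus strand: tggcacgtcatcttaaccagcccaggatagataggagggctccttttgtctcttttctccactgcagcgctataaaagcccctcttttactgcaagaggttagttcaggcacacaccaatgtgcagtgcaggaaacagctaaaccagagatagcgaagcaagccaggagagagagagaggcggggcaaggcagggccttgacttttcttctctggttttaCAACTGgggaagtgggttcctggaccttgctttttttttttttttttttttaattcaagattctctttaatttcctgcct
Lhx2, first listed start, chr2:38339031-38339330, plus strand: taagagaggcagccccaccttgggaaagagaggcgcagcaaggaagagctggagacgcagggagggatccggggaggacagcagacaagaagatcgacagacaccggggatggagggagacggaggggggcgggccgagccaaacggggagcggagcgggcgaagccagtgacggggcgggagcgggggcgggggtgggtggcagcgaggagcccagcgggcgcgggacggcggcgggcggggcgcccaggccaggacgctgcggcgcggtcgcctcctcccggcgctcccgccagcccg
Lhx2, second listed start, chr2:38351058-38351357, plus strand: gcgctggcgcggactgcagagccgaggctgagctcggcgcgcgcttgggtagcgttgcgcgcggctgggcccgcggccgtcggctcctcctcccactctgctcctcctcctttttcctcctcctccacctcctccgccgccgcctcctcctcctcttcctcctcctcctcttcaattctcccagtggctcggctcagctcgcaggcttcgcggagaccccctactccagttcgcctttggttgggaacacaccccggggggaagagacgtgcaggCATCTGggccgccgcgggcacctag
The Atoh1 window held 0 E-boxes, the Olig3 window held 1, and of the Lhx2 windows the second held 1. Across the 13 windows, 9 held an E-box, against 72.3% of 32851 windows of the same length over all genes. The homeodomain core TAATTA was in 1 of the 13, the first listed start of Barhl1, and in 5.3% of all windows. TGACAG, the core bound by Meis proteins, was in 3 of the 13 and in 19.2% of all windows. These letters describe the windows and are not evidence of binding.

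Of the 10 genes, 8 had a probe set with a mean signal of at least 100 over the 5 arrays and were tested together with all other such genes. Atoh1, Olig3 and Lhx2 rose in the tumours (limma, Benjamini-Hochberg adjusted p under 0.05), and 0 fell. Over all 14109 genes tested, 0.312% rose and 0.177% fell. At an unadjusted p under 0.05 the set held 4 higher and 1 lower, where 7.72% of all genes were higher and 7.44% lower. The 4 tumours were all above the cerebellum for 5 of the 8 genes and all below for 1, Pax6; over all genes tested these shares were 25.1% and 30.8%. Of the 8, 3 lay at least 2-fold above the cerebellum in all 4 tumours at once, against 2.01% of all genes. None (0) lay at least 2-fold below in all 4 at once, against 2.63%. The median difference of the 8 was 0.87 on the log2(signal + 32) scale, and that of all genes tested was -0.07. A gene that is dim in the tumours seldom passes a filter on the mean of 4 tumours and 1 cerebellum, and the genes left out, Lmx1a and Meis2, were both brighter in the cerebellum at the brightest probe set, so the counts over the 8 do not describe all 10. Lhx2, at 13.8 in the cerebellum, entered the test only through its level in the tumours, while Lmx1a, low in the tumours and at 176 in the cerebellum, was left out; the 3 higher and 0 lower are partly set by that filter. The plot of signals by array shows every gene, dim ones included.

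**Figure D1:**
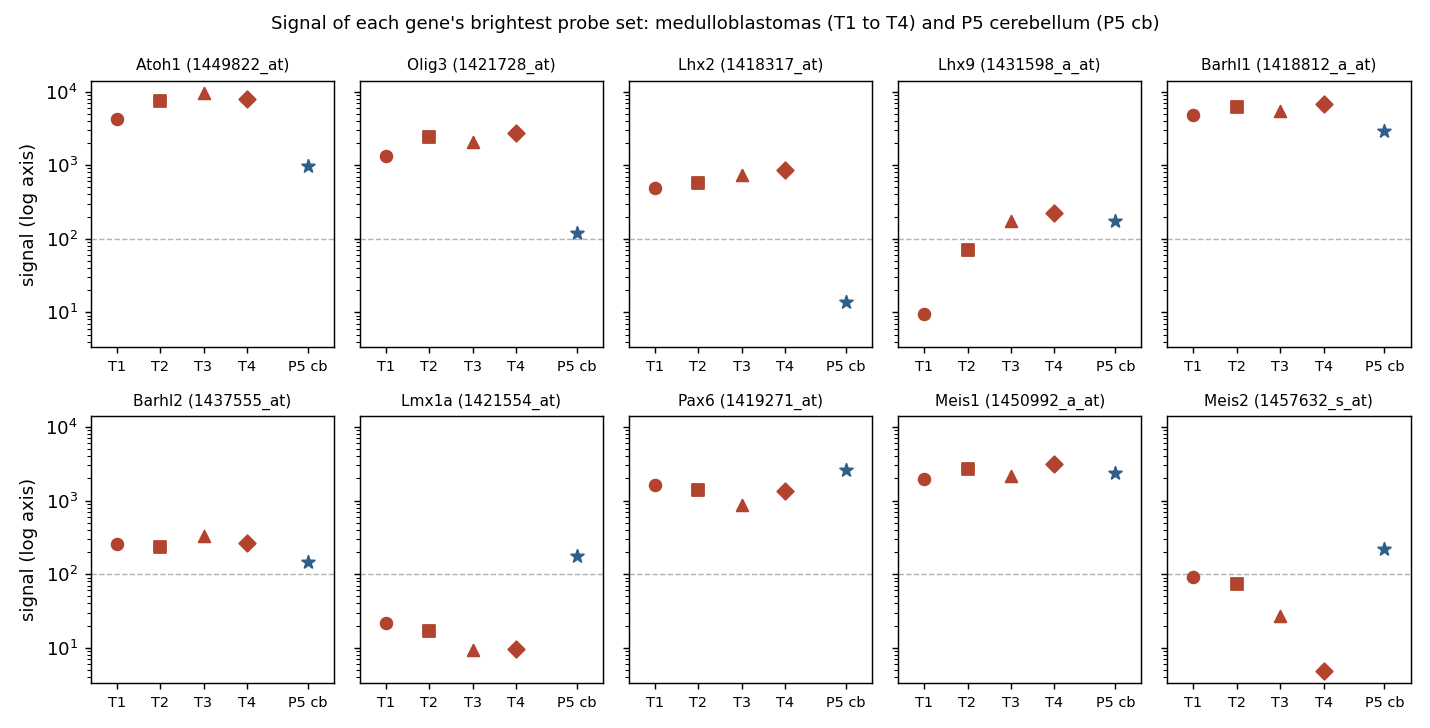
Signal of the brightest probe set of each of the 10 genes on each array (log axis), with medulloblastomas 1 to 4 in red (T1 to T4) and the P5 cerebellum as a blue star; the dashed line marks a signal of 100. The tumours lie above the cerebellum for Atoh1, Olig3, Lhx2, Barhl1 and Barhl2, below it for Lmx1a, Pax6 and Meis2, and on either side of it for Lhx9 and Meis1.

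Atoh1, the factor that specifies rhombic lip progenitors and is kept in dividing granule neuron precursors, had (probe set 1449822_at) signals of 4178, 7341, 9505 and 7872 across medulloblastomas 1 to 4, against 963 for P5 cerebellum. Every tumour was above the cerebellum, and medulloblastoma 1 was the lowest of them. The ratio on the linear scale lay between 4.34 and 9.87. The mean log2 difference was 2.81 ± 0.40 (SE; limma, adjusted p = 0.0336), the 30th largest of 14109. The sample titles carry the prefix ken in medulloblastomas 1 and 2, while medulloblastomas 3 and 4 and the cerebellum carry hmk; what the prefixes stand for is not given in the sources used here. Within the hmk arrays the Atoh1 difference was 3.13 (adjusted p = 7.48e-06), and for the ken tumours set against the hmk cerebellum it was 2.49 (adjusted p = 0.0805). The fits within a prefix take their spread from a single pair of tumours. The call was lost without medulloblastoma 2 (adjusted p = 0.138), 3 (0.0678) or 4 (0.105), with the difference between 2.65 and 2.78.

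Olig3, the bHLH factor of early dorsal progenitors, read (probe set 1421728_at) 1318, 2448, 2030 and 2709 on the tumour arrays, against 119 on the cerebellum array. All 4 tumours were above the single cerebellum array, as for 25.1% of all genes tested, and again medulloblastoma 1 was the lowest tumour. The linear ratio lay between 11.1 and 22.8, and the mean log2 difference was 3.79 ± 0.39 (limma, adjusted p = 0.0197), the 11th largest. It was 3.98 within the hmk arrays and 3.60 for the ken tumours, with adjusted p of 1.87e-05 and 0.0471. The call was lost without medulloblastoma 2 (adjusted p = 0.0825) or 4 (0.0670), while the difference was 3.70 and 3.66. Both Atoh1 and Olig3 have 1 probe set each, so no second reading of either is on the array.

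Lhx2, a LIM-homeodomain factor known in the forebrain, the eye and the Atoh1-derived neurons of the spinal cord, read (probe set 1418317_at) 496, 578, 738 and 852 on the tumour arrays, against 13.8 on the cerebellum array. The cerebellum signal is far below the 100 required of the mean, so Lhx2 was tested only through its level in the tumours. Its fitted log2 difference was 3.90 ± 0.38 (limma, adjusted p = 0.0197), which is no measured size against so dim a reading, and it was 4.17 within the hmk arrays and 3.63 for the ken tumours. Since 13.8 is smaller than the 32 added to each signal, the size depends on that constant: it was 4.92 with 8 and 2.46 with the largest constant tried, past the threshold with either. The call was lost without medulloblastoma 2 (adjusted p = 0.0825) or 4 (0.0670). Lhx2 also has 1 probe set. Without a variance trend in limma all 3 genes missed the threshold, with an adjusted p of 0.131 for Atoh1 and 0.0971 for Olig3 and Lhx2. Atoh1 alone of the 3 also missed it with no filter on signal (adjusted p = 0.0584) and with all probe sets of each gene averaged (0.0560).

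Macrophage and microglia markers were, like these 3 genes, above the cerebellum in the tumours. Their order among the tumours varied: Ctss and Csf1r were highest in medulloblastoma 1, and Lyz2 and C1qb lowest there. All 10 markers of that list were above the cerebellum in every tumour, against 25.1% of all genes tested, their summed signal lay between 20934 and 27065 on the tumour arrays against 6715 on the cerebellum array, and 4 of the 10 rose, against 0.312% of all genes; 0 of the 10 were under 100 on all arrays. Gabra6 and Cbln3, genes of maturing granule neurons, were also above the cerebellum in every tumour. They were the only 2 of 10 cerebellum markers to be so, and 6 of the 10 were below it in every tumour. Cbln1, on the same list, read 7363, 4689, 2791 and 3159, with the cerebellum at 6481, so 3 tumours were below. Neurod1, a granule neuron differentiation factor, was below the cerebellum in every tumour, as was Neurod2. Gabra6 read 6856, 3252, 1664 and 2402 across the tumours, with the cerebellum at 164, and rose by 3.99 ± 0.63 (limma, adjusted p = 0.0468). Cbln3 read 8384, 3888, 1692 and 2876, with the cerebellum at 382 (3.11 ± 0.69, adjusted p = 0.109). Both were highest in medulloblastoma 1, where Atoh1, Olig3 and Lhx2 were lowest among the tumours. The part of any of these cells in the level of Atoh1, Olig3 or Lhx2 was not tested.

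Lhx9, the closest relative of Lhx2 in the LIM-homeodomain family, was uneven among the tumours. Its brightest probe set, 1431598_a_at, read 9.44, 71.2, 176 and 226 across medulloblastomas 1 to 4, against 172 for P5 cerebellum. The tumours titled ken lay below the cerebellum and those titled hmk above it, and the SD of the log2 differences among tumours was 1.19, where the median over all genes tested was 0.31. The mean difference was -0.73 ± 0.99 (limma, adjusted p = 0.749), and it was 0.18 within the hmk arrays. The 3 dimmer probe sets had a mean signal under 100 and were lower in all 4 tumours, with mean differences of -1.13, -1.28 and -0.90. Probe set 1441313_x_at, for example, read 2.42, 64.0, 4.06 and 46.2 on the tumour arrays and 102 on the cerebellum array. At these signals the probe sets of Lhx9 differ from each other in the order of the tumours: medulloblastoma 1 was the lowest tumour at 3 of the 4, and medulloblastoma 4 at the other one.

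Barhl1 and Barhl2, homeodomain factors that lie downstream of Atoh1 in rhombic lip derivatives, were above the cerebellum in every tumour at every probe set, by less than Atoh1. The brighter Barhl1 probe set, 1418812_a_at, read 4810, 6120, 5428 and 6673 on the tumour arrays and 2905 on the cerebellum array. All 4 tumours were above the single cerebellum array, as for 25.1% of all genes tested. The difference was 0.97 ± 0.24 (limma, adjusted p = 0.132). Barhl1 passed the threshold within the hmk arrays (1.04, adjusted p = 0.00579) and without medulloblastoma 1 (1.05). The dimmer probe set, 1418811_at, read 1001, 1781, 1703 and 2384 against 976, so medulloblastoma 1 was level with the cerebellum there, and the mean difference was 0.73. Barhl2, at its single probe set, read 258, 233, 332 and 268 on the tumour arrays and 146 on the cerebellum array. Its difference of 0.76 ± 0.39 did not pass (limma, adjusted p = 0.389), although the tumours lay close together, with an SD of 0.19.

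Among the 6 probe sets with all 4 tumours above the cerebellum, which belong to Atoh1, Olig3, Lhx2, Barhl1 and Barhl2, medulloblastoma 1 was the lowest tumour at 5 and medulloblastoma 4 the highest at 4. Medulloblastoma 1 had the highest ratios of 3' to 5' signal, 1.45 for actin and 0.946 for Gapdh, and the part of RNA quality in its levels was not tested. All 15 probe sets of the set that reached a mean of 100 were also fitted singly, along with every other such probe set. Again 3 rose and 0 fell (limma, adjusted p under 0.05), where 0.163% of 25843 probe sets rose and 0.0851% fell. At an unadjusted p under 0.05 (limma), 4 were higher and 3 lower, the latter all probe sets of Pax6. The share over all probe sets at that unadjusted p was not counted, so these 4 and 3 have no background beside them. Of these 15, the tumours were all above the cerebellum at 6 and all below at 5, against 25.4% and 28.4% of all probe sets.

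**Figure D2:**
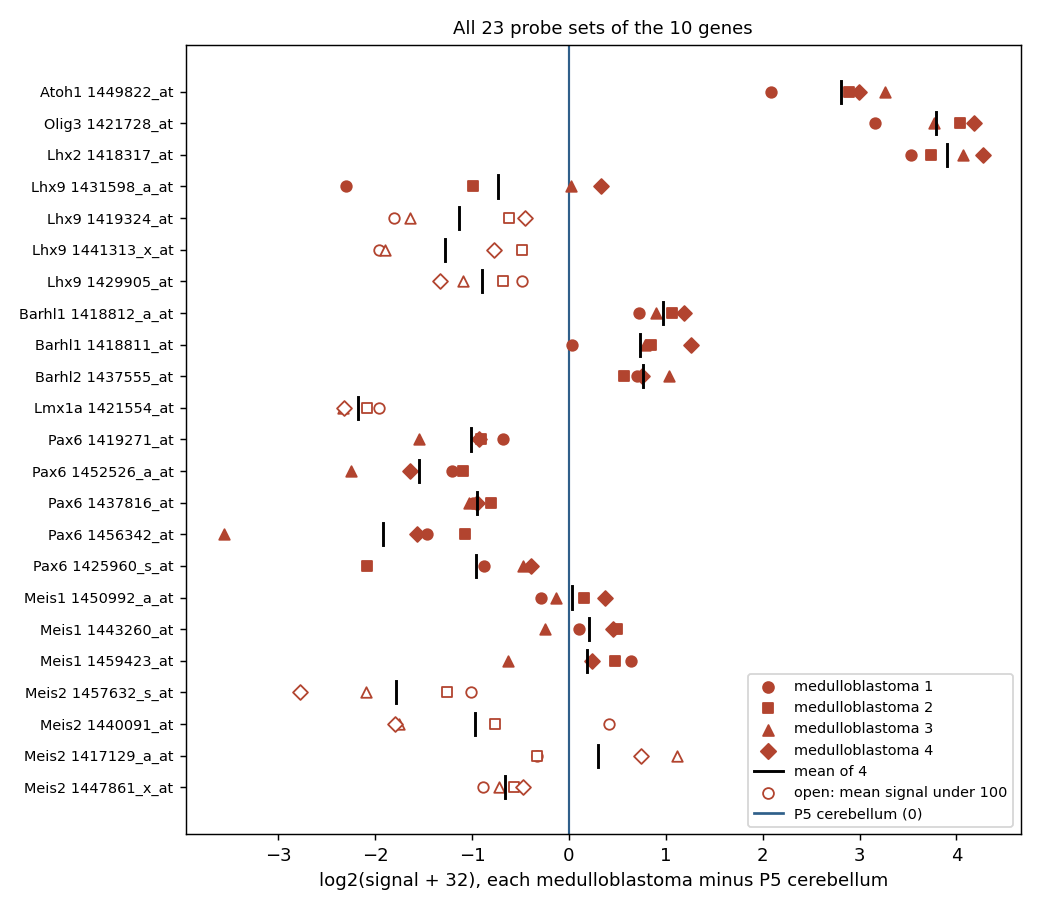
Difference of each medulloblastoma from the P5 cerebellum on the log2(signal + 32) scale at all 23 probe sets, with 1 symbol per tumour, a black bar for their mean and the cerebellum at 0. Filled symbols are probe sets with a mean signal of at least 100. Atoh1, Olig3 and Lhx2 lie to the right, the 5 Pax6 probe sets to the left, and the Lhx9 and Meis2 probe sets spread widely.

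Pax6, which in the cerebellum marks granule neuron precursors and young granule neurons, lay below the cerebellum in the tumours. All 5 probe sets were lower in all 4 tumours. The brightest, 1419271_at, read 1613, 1370, 870 and 1348 across medulloblastomas 1 to 4, against 2599 for P5 cerebellum. The second, 1452526_a_at, read 708, 770, 328 and 518, against 1679. No tumour reached the cerebellum at either, and medulloblastoma 3 was the lowest tumour at 4 of the 5 probe sets. Mean log2 differences ran between -1.91 and -0.95 over the 5 probe sets, and -1.02 ± 0.34 at the brightest (limma, adjusted p = 0.241 over all genes tested). The -1.91 was at 1456342_at, where medulloblastoma 3 read 12.7 and the other tumours 146 to 219, so it rests much on that dim reading. None of the 5 passed when probe sets were fitted singly, with adjusted p between 0.207 and 0.577. Within the hmk arrays Pax6 passed (-1.24, adjusted p = 0.0169), while for the ken tumours the difference was -0.79 (adjusted p = 0.403). Probe sets of 1 gene share their RNA and are not replicates, so 5 readings below the cerebellum are not 5 tests.

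Lmx1a, a LIM-homeodomain factor of the roof plate, the choroid plexus border and unipolar brush cells, had its highest signal in the cerebellum. It read 21.5, 16.9, 9.27 and 9.63 on the tumour arrays, against 176 on the cerebellum array, so every tumour was below the cerebellum and below the 100 used as a filter. The mean log2 difference was -2.17 (SD among tumours 0.18). With a mean signal of 46.6 Lmx1a was not tested; with no filter on signal its difference had an adjusted p of 0.107 (limma). The size depends on the added constant, at -3.08 with 8 and -1.09 with the largest constant tried. Roof plate and choroid plexus genes, 12 with a probe set, summed to between 6165 and 35621 across tumours, against 16470 for the cerebellum. Ttr, which encodes transthyretin and is a defining product of choroid plexus, read 31466, 14592, 3808 and 4073 on the tumour arrays. It read 11956 on the cerebellum array, so it was above and below the cerebellum in 2 tumours each. Ttr made up most of the summed signal on every array, so the range of the sum describes Ttr more than the list. Of the 10 genes of the list tested, 6 were below the cerebellum in every tumour and 2 above, against 30.8% and 25.1% of all genes tested.

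Meis1, a partner of Pbx proteins expressed in granule neurons and their precursors, was close to the cerebellum in the tumours. Its brightest probe set, 1450992_a_at, read 1942, 2659, 2172 and 3092 on the tumour arrays and 2377 on the cerebellum array, with 2 tumours on each side. The difference was 0.03 ± 0.29 (limma, adjusted p = 0.970), and those of the 2 other probe sets were 0.21 and 0.18. Depending on the setting, Meis1 lay between -0.09 and 0.22. Meis2, its relative, was dim throughout. Its brightest probe set, 1457632_s_at, read 92.8, 73.7, 27.2 and 4.87 across medulloblastomas 1 to 4 and 220 for P5 cerebellum, so all tumours were below it. The mean difference was -1.78 (SD 0.81), which was not tested for low signal and had an adjusted p of 0.348 with no filter (limma). Its other probe sets disagreed: 1440091_at read 133, 40.6, 4.68 and 3.63 against 91.4, and 1417129_a_at read 17.1, 16.9, 102 and 71.0 against 29.6. With the 4 probe sets averaged the Meis2 difference was -0.78, and it was below 0 in all 16 alternatives that gave a value.

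**Figure D3:**
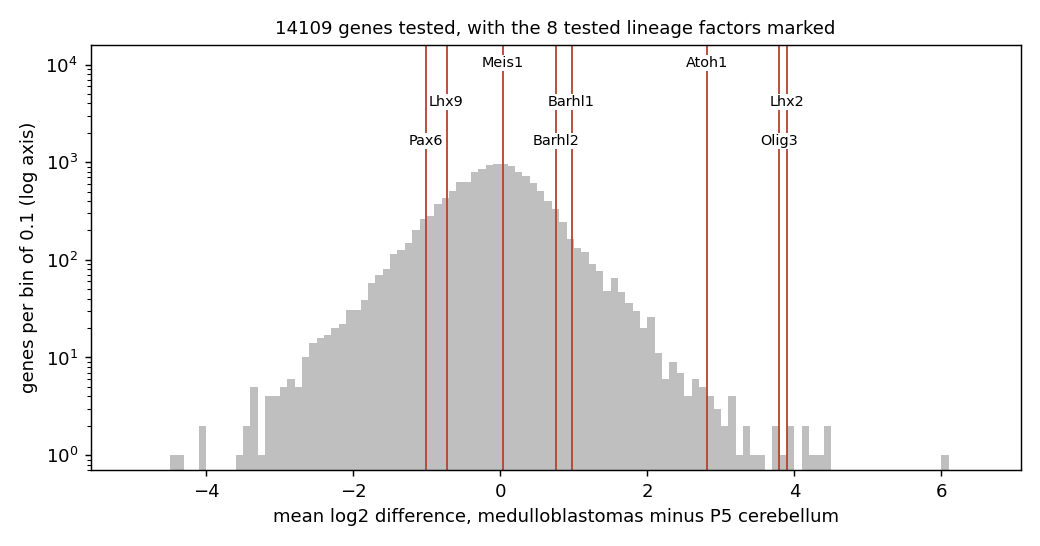
Histogram of the mean log2 differences of all 14109 genes tested (log axis for the number of genes in each bin of 0.1), with red lines at the 8 tested factors. Olig3 and Atoh1 stand at the 11th and 30th largest differences, Lhx2 lies beside Olig3 with a size that depends on the added constant, and Barhl2, Barhl1, Meis1, Lhx9 and Pax6 lie nearer the centre.

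The genes whose 4 differences lay nearest to those of the called factors were listed by mean absolute distance over the 4 tumours. Nearest to Atoh1 was Cdk6, a cell-cycle kinase, at a distance of 0.11, with signals of 6067, 10180, 12712 and 12574 on the tumour arrays and 1479 on the cerebellum array. It was followed by Prox1, a homeodomain factor, at 0.23, and Hk2, a hexokinase, at 0.25. Prox1 read 381, 597, 639 and 666 against 42.1; its difference of 2.99 was 1.54 and not called with all its probe sets averaged. Nearest to Olig3 was Lhx2, at 0.26, followed by Fosl2, a component of AP-1, at 0.32, and Gpnmb, a membrane glycoprotein, at 0.40. Nearest to Lhx2 were Fosl2 at 0.25, Olig3 at 0.26 and Gpnmb at 0.33. The nearness of Lhx2 to Olig3 depends on the constant added to each signal, since Lhx2 was dim in the cerebellum. With a constant of 8 the mean differences were 4.92 for Lhx2, 4.90 for Fosl2, 4.53 for Gpnmb and 4.02 for Olig3. With the largest constant tried they were 2.46, 2.79, 3.28 and 3.15 in the same order. The distances given are for the main fit only. With all probe sets averaged, Fosl2 was 2.08 in place of 4.11 and Gpnmb 2.09 in place of 4.16, and both calls were lost (adjusted p = 0.0559 and 0.0872). The differences of a gene share the single cerebellum array, so nearness in 4 values that are all large is a description of these arrays.

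Partners and cofactors of the factors were listed next. Pbx, Pknox and Meis3 proteins pair with Meis and Hox proteins, Ldb, Lmo, Ssbp and Rlim proteins act with or on LIM-homeodomain factors, and Tcf3, Tcf4 and Tcf12 are the E proteins that dimerise with bHLH factors such as Atoh1. Of 18 genes tested, 0 rose and 0 fell (limma; 2 higher and 2 lower at an unadjusted p under 0.05), and the median difference was -0.14. Over all genes tested, 7.72% were higher and 7.44% lower at that unadjusted p (limma), which holds for the lists below too. Lmo1, a LIM-only protein, read 771, 977, 321 and 637 on the tumour arrays and 240 on the cerebellum array (1.28 ± 0.52, limma adjusted p = 0.307). Pknox2 read 314, 276, 310 and 356 against 736 (-1.16 ± 0.32, adjusted p = 0.167), with the tumours close together. Lmo3 and Ldb2 had differences of -1.21 ± 0.89 and -1.03 ± 0.59. The median of the list was 0.05 after scaling to equal medians; that scaling moved the median of all genes to 0.12.

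Inhibitors of bHLH factors formed a list of their own. Id proteins bind E proteins and keep them from DNA, and Hes and Hey proteins are Notch-induced repressors; Hes5 is known to restrain proneural factors such as Atoh1, whereas Hes6 opposes Hes1. Of 8 genes tested, Id3 fell and 0 rose (limma; 1 higher and 5 lower at an unadjusted p under 0.05), where 0.177% of all genes fell. The tumours were all below the cerebellum for 6 of the 8, against 30.8% of all genes, and all above it for Hey1 (0.68 ± 0.29). The median difference was -1.18, and -0.68 with no filter on signal. Id3 read 483, 553, 488 and 459 on the tumour arrays and 2889 on the cerebellum array (-2.47 ± 0.26; limma, adjusted p = 0.0197). Its call was lost without medulloblastoma 2 (adjusted p = 0.0825) or 4 (0.0670) and without a variance trend (0.0971). Hes5 read 100, 236, 264 and 260 against 1155 (-2.33 ± 0.51, adjusted p = 0.109), and Id4 read 999, 619, 848 and 619 against 2640 (-1.76 ± 0.33, adjusted p = 0.0753). Id1 read 415, 630, 670 and 437 against 1756 (-1.68 ± 0.34, not past the threshold).

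Genes that mark the neurons derived from the rhombic lip were listed as well. Of 13 tested, 0 rose and 0 fell (limma; 1 higher and 3 lower at an unadjusted p under 0.05), with a median difference of -0.24. That median was -0.06 with equal medians, and -0.15 and -0.14 without medulloblastoma 1 or 2. Eomes, the T-box factor of unipolar brush cells, read 336, 282, 223 and 183 on the tumour arrays and 1176 on the cerebellum array (-2.10 ± 0.39, adjusted p = 0.0745). It was below the cerebellum in every tumour. Calb2, another marker of these cells, read 3285, 1549, 590 and 796 across the tumours, with the cerebellum at 751 (0.71 ± 0.77, adjusted p = 0.680), so it was above the cerebellum in 3 of 4. The granule neuron differentiation factor Neurod1 read 8929, 6503, 7515 and 6736 against 12958 (-0.81 ± 0.23, adjusted p = 0.185), and Neurod2 read 1951, 830, 658 and 436 against 2962 (-1.80 ± 0.65, adjusted p = 0.267). Insm1, a zinc-finger factor of intermediate progenitors, read 6955, 7084, 11456 and 11669 against 4915 (0.87 ± 0.34, adjusted p = 0.291).

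The ventricular zone, which faces the rhombic lip across the cerebellar plate, produces Purkinje cells and inhibitory interneurons under the bHLH factor Ptf1a. The list named for that zone held 7 tested genes, Ptf1a, Lhx5, Nkx2-2, Foxp2, Olig2, Lhx1 and Olig1, and was not limited to genes of those neurons. Of the 7, 0 rose and 0 fell (limma, with 0 higher and 3 lower at an unadjusted p under 0.05), and the median was -0.77. It was -0.11 with all probe sets averaged, -0.35 at a mean signal of at least 200 and -1.23 with no filter. Ptf1a read 116, 107, 26.8 and 151 on the tumour arrays and 588 on the cerebellum array (-2.34 ± 0.70, adjusted p = 0.201). The LIM-homeodomain gene Lhx5 read 161, 145, 260 and 177 against 587 (-1.53 ± 0.43, adjusted p = 0.176). Nkx2-2 and Foxp2 differed by -1.50 ± 0.35 and -0.77 ± 0.59, the second of which was -0.11 with all probe sets averaged. Olig2 and Lhx1 were above the cerebellum in every tumour, by 0.65 ± 0.50 and 0.47 ± 0.32. Neurog1, Neurog2 and Gsx1 had too low a mean signal to be tested. Neurog1 and Neurog2 read 207 and 255 on the cerebellum array and were lower in every tumour. Gsx1, at 118 there, was above the cerebellum in medulloblastoma 1 and below it in the others.

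Of 10 roof plate and choroid plexus genes tested, 0 rose and 0 fell (limma; 0 higher and 2 lower at an unadjusted p under 0.05), with a median of -0.79. The median in single tumours was -0.26, -0.45, -1.04 and -1.11 in medulloblastomas 1 to 4, and over the prefixes it was -1.27 for hmk and -0.35 for ken. Msx2 differed by -2.24 ± 0.94, and the BMP ligand genes Bmp6 and Bmp7 by -1.58 ± 0.43 and -1.15 ± 0.64. Wnt3a read 178, 140, 275 and 292 on the tumour arrays and 84.0 on the cerebellum array (1.08 ± 0.52, adjusted p = 0.367).

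**Figure D4:**
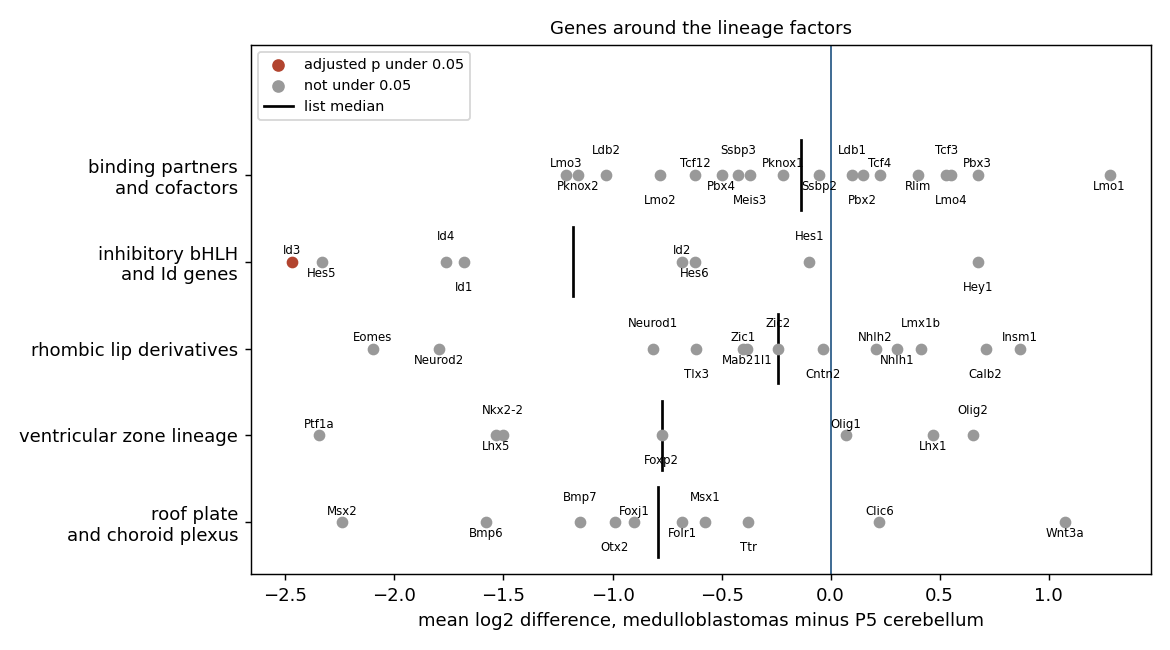
Mean log2 difference (medulloblastomas minus P5 cerebellum) of each tested gene in 5 lists of genes around the lineage factors, with a black bar at the list median; red marks an adjusted p under 0.05. Id3 is the single red point, and the medians run between -1.18 for the inhibitory bHLH and Id genes and -0.14 for the partners and cofactors.

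Tissue markers were checked on all arrays. Of 10 cerebellum markers, Gabra6 rose and 0 fell (limma; 2 higher and 2 lower at an unadjusted p under 0.05), and 2 were above and 6 below the cerebellum in every tumour. Over all genes tested, 0.312% rose and 0.177% fell, and 25.1% were above and 30.8% below the cerebellum in every tumour. En2 and Zic1 lay close below the cerebellum, at 1148 to 1507 and 16486 to 21638, against 1549 and 24337 there. The hindbrain gene En1 read 29.4, 48.3, 1.47 and 121, against 389 (-2.57 ± 0.95, adjusted p = 0.272). The Purkinje cell genes Calb1, Car8 and Pcp2 differed by -1.64 ± 0.69, -1.60 ± 0.78 and -1.28 ± 0.67. The 10 cerebellum markers, of either direction, summed to between 30497 and 65949 in the tumours, highest in medulloblastoma 1, against 58874 in the cerebellum. The 7 forebrain and midbrain markers with a probe set summed to between 2578 and 3731 across tumours, against 2164 for the cerebellum, and of 5 tested 0 rose and 0 fell (limma; 0 and 0 at an unadjusted p under 0.05). Otx1 (3.43 ± 1.63) was above the cerebellum in every tumour, as was Pou4f1, at 653, 695, 176 and 778 against 158. Tcf7l2 and Six3 were below it in every tumour (-1.08 ± 0.62 and -1.07 ± 0.49), and Otx2 was on either side. The median difference of the 5 forebrain and midbrain markers tested was -0.99. Otx2 was the largest part of their summed signal in medulloblastomas 1 and 2 and the cerebellum, and Otx1 in medulloblastomas 3 and 4. Since Otx2 is also on the roof plate and choroid plexus list, that sum is not of forebrain and midbrain genes alone. Median signals of whole arrays were 191 to 213 for the tumours, against 232 for the cerebellum. Since the cerebellum has 1 array, only the tumours supply an estimate of spread, and 0.2 is the smallest p that an exact permutation test allows in this design.

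**Figure D5:**
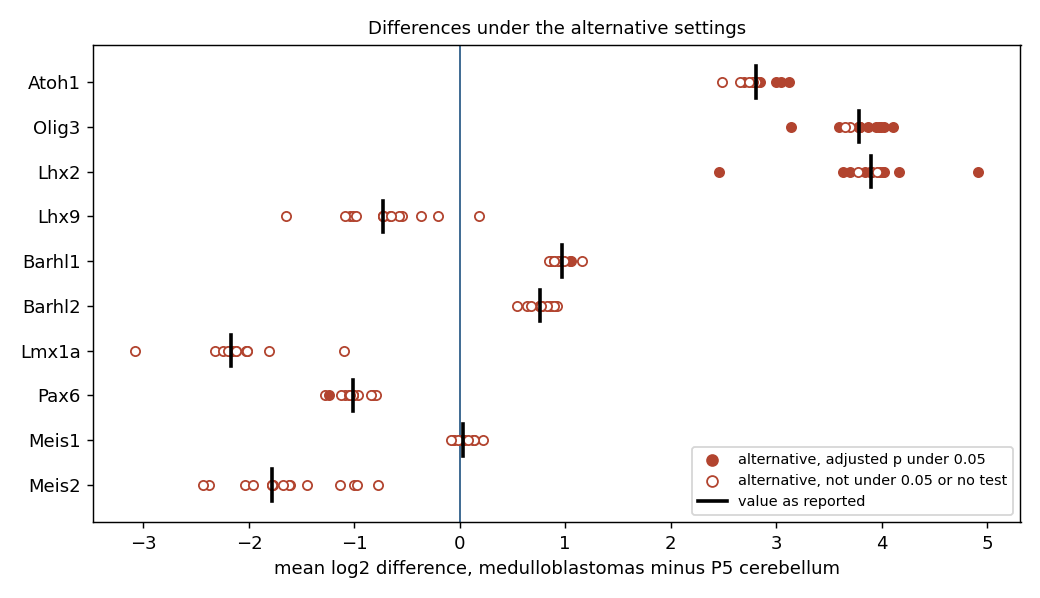
Mean log2 difference (medulloblastomas minus P5 cerebellum) of each of the 10 genes as reported (black bar) and under each alternative setting (circles, filled where the adjusted p was under 0.05). Atoh1, Olig3, Lhx2, Barhl1 and Barhl2 stay above 0, Lmx1a, Pax6 and Meis2 stay below 0, and Lhx9 and Meis1 cross it.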

How the data were processed

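RNA from 4 mouse medulloblastomas and 1 P5 cerebellum was measured on Affymetrix arrays. The deposited values are intensities on a linear scale, made by the authors with MAS5 for all arrays but medulloblastoma 3, per the submitters' processing notes; for that array the tool is not given in the sources used here. Precision is limited by there being 5 arrays. Whether tumours came from separate animals is not stated. The p-values rest on the spread among these 4 tumour samples, moderated by limma over all genes, and hold no spread among cerebella.

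Each array was scaled to a mean of 500 after removing 2% of probe sets at each end, and log2(signal + 32) was taken, which understates changes of dim genes. For each of 18193 genes the brightest probe set by mean signal was used; 14109 with a mean of at least 100 were fitted with limma 3.58.1 in R 4.3.3 (lmFit, eBayes with a variance trend) and adjusted by Benjamini-Hochberg (two-sided, threshold 0.05). Errors after ± are standard errors. Symbols came from the platform annotation, checked by Entrez gene ID. The procedure was tested on simulated data. The genes and the lists were chosen with earlier results of these data known. All 10 factors were named with every probe set, and of each further list the called genes and up to 4 with the largest absolute difference, and for Atoh1, Olig3 and Lhx2 the 3 nearest genes; Hes6, Ttr, Hey1, Calb2, Olig2, Lhx1 and the tissue markers were added after their values were seen. Alternatives were other scalings, constants, filters, choices of probe set, variance models, title prefixes and each tumour left out.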

Additional observations from a re-analysis of the deposited data

How the results depend on the processing

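No paired analysis was possible because there is 1 cerebellum array, so the groups share fewer than 2 replicate numbers. Over the alternatives Atoh1 lay between 2.49 and 3.13, Olig3 between 3.15 and 4.11 and Lhx2 between 2.46 and 4.92. They passed in 10, 14 and 14 of 17, which are not separate trials. The deposited arrays already had a trimmed mean of 500, so leaving out the scaling repeated the main fit. Atoh1, Olig3 and Lhx2 have 1 probe set each, so the choices of probe set left their differences unchanged. "Factors" below are all members of the set. The factors called higher (3) numbered 0 without a variance trend (5 at an unadjusted p under 0.05) and 0 to 4 with a tumour left out. Those called lower (0) numbered 1 within the hmk arrays. By probe set, those called higher (3) numbered 0 without a trend and for the ken tumours and 0 to 4 with a tumour left out, and those called lower (0) numbered 2 within the hmk arrays. Over all genes, 44 were called higher and 25 lower. These counts were 78 higher with equal medians, 45 lower with the largest added constant, 14 and 12 with no filter, 11 and 5 with all probe sets averaged, 0 and 0 without a trend (908 and 1099 at an unadjusted p under 0.05), 837 and 841 within the hmk arrays and 21 and 16 for the ken tumours. With a tumour left out they ran between 0 and 448 higher and 0 and 383 lower. Directions that turned were those of Lhx9 within the hmk arrays (0.18), of Meis1 after quantile normalization (-0.058), for the ken tumours (-0.064) and with a tumour left out (between -0.0856 and 0.135), and of the dimmest Meis1 probe set within the hmk arrays (-0.19). The median of partners and cofactors was 0.0546 with equal medians and 0.0226 at a mean signal of at least 200, and that of all genes was 0.12 with equal medians. The cause was not tested. Of 23 probe sets, 0 held a tumour far from the other 3 by Dixon's test. Dim signals limit Lhx9, Lmx1a and Meis2.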

Other observations

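Otx1, a homeobox gene listed here among forebrain and midbrain markers, differed widely between the tumours. It read 36.3, 479, 2067 and 2125 across medulloblastomas 1 to 4, against 26.5 for P5 cerebellum, so it was near the cerebellum in medulloblastoma 1 and far above it in the other tumours. The log2 difference was 3.43 ± 1.63 (limma, adjusted p = 0.363). Its relative Otx2 ran the other way among the tumours, at 1608, 1111, 95.3 and 126 against 843, a difference of -0.99 ± 1.33 (limma, adjusted p = 0.747). Otx2 is also on the roof plate and choroid plexus list used here. Like Ttr of that list, it was above the cerebellum in medulloblastomas 1 and 2 and below it in 3 and 4. A link between these levels was not tested. Otx1 and Otx2 were named after their values were seen.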
